A study of Mus musculus with 4 samples.

Results

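The 8 genes described here encode major urinary proteins and were chosen by their symbols in the mm9 annotation: *Mup1*, *Mup2*, *Mup3*, *Mup4*, *Mup5*, *Mup6*, *Mup20* and *Mup21*. They are 8 of the 22367 protein-coding genes placed in the lists. The rule uses only the symbols, but the family was picked with earlier results of these data known. Lamina association was mapped by DamID in primary hepatocytes of WT mice and of *Tm7sf2*/NET47 KO mice, both on a C57BL/6 background, to ask which genome regions depend on this nuclear envelope protein for their position. The hepatocytes were transduced with lentivirus for Dam-LaminB1, which methylates GATC sites at the nuclear lamina, or for Dam only, the control. This made 4 libraries, 1 for each construct and genotype, each from the DNA of 4 mice combined before sequencing. The mice were 12 to 16 weeks old.

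The lists hold LADs (lamina-associated domains) of WT and of KO cells, and DRs (differential regions) made by subtracting one LAD list from the other. A PI region was in a WT LAD and in no KO LAD, an IP region was in a KO LAD and in no WT LAD, and stretches under 10 kb were left out. A gene takes the class of any DR that holds at least 1 base of it, AMB if it meets both kinds; otherwise it is PP where LADs of both genotypes touch it and II where they do not. With 1 library pair for each genotype there is no replicate, no spread between animals and no test, so that every difference below is a difference between those libraries. The lists hold neither signal nor read depth, and no expression values, so the hepatocyte label could not be checked against marker genes. The KO libraries had fewer usable reads than those of WT, and the part of this in the differences was not tested.

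Major urinary proteins are small lipocalins, barrel-shaped carriers with a pocket for volatile molecules. The mouse liver makes them in very large amounts and secretes them into the blood, from which they pass into the urine and serve as scent signals. In the liver their genes are driven by pulses of growth hormone through STAT5 and are higher in males, while *Mup4* and *Mup5* are known for expression in nasal, lacrimal or salivary glands. *Mup20* encodes darcin, a male pheromone that attracts females, and *Mup3* encodes another adult liver form. *Mup1* and *Mup2* belong to a group of nearly identical liver genes that arose by recent duplication. LADs as a rule hold few active genes.

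The annotation (GENCODE on NCBIM37, the assembly also called mm9) places the 8 genes at chr4:59969676-61811897, a span of 1842.2 kb. It also holds 13 other coding *Mup* genes, *Mup7* to *Mup19*, which makes 21 in all, and 20 *Mup* pseudogenes. Of the 21 coding genes, 20 lie on the minus strand and only *Mup6* on the plus strand, while 15 of the pseudogenes lie on the plus strand. From *Mup2* to *Mup18*, neighbouring start sites were a median of 80.1 kb apart (12 gaps, 60.9 to 199.3 kb). *Mup4*, *Mup6* and *Mup2* lie toward the first end of this array and *Mup1* within it, while *Mup5*, *Mup20*, *Mup3* and *Mup21* follow at the far end.

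Sequence shows how alike these genes are. The windows below were read from NCBIM37 and begin in *Mup1* at 200 bases before the transcription start and end at 101. They are shown because the lists of WT and KO differed at the start sites of several of these genes. Each is printed 5′ to 3′ on the gene's strand, and capitals mark bases that are substituted or inserted relative to *Mup1*.
Mup1: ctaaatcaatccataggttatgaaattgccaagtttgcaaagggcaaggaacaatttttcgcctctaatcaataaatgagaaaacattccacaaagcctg
Mup2: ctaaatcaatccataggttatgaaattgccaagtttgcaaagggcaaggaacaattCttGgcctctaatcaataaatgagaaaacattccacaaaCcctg
Mup6: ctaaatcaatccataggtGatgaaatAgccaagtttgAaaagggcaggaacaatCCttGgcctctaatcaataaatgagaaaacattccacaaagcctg
Mup5: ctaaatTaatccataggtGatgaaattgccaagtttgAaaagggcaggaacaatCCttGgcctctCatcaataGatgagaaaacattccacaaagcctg
Mup4: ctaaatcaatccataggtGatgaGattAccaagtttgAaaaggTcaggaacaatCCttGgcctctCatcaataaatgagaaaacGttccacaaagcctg
Mup3: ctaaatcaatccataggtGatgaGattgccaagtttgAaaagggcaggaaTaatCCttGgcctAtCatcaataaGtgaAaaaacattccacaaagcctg
Mup20: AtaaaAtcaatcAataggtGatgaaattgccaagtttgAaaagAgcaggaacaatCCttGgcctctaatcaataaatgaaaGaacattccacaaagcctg
Mup21: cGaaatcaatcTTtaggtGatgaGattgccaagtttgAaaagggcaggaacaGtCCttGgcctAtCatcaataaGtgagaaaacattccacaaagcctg

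In these windows *Mup2* differed from *Mup1* at 3 positions, *Mup6* at 7, *Mup5* at 9, *Mup4* at 11, *Mup3* and *Mup20* at 12 and *Mup21* at 14. The *Mup1* window is chr4:60514933-60515032 and that of *Mup2* is chr4:60152849-60152948, both on the minus strand. No window held a GATC, the only site at which DamID can report. Over the whole main transcript, introns included, *Mup1* was 99.6% identical to *Mup12* and 96.8% to *Mup2*, and *Mup2* was 98.4% identical to *Mup13*. (The main transcript is the coding transcript with the most exonic bases.) *Mup1* and *Mup2* each had 14 other genes at 95% identity or more, whereas *Mup3*, *Mup4*, *Mup5*, *Mup6*, *Mup20* and *Mup21* had 0. The closest coding relative of *Mup5*, *Mup6*, *Mup20* and *Mup3* was *Mup4*, at 88.2%, 88.5%, 87.6% and 82.4%. *Mup21* stood apart, at 61.3 to 65.8% to the other 7.

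**Figure D1:**
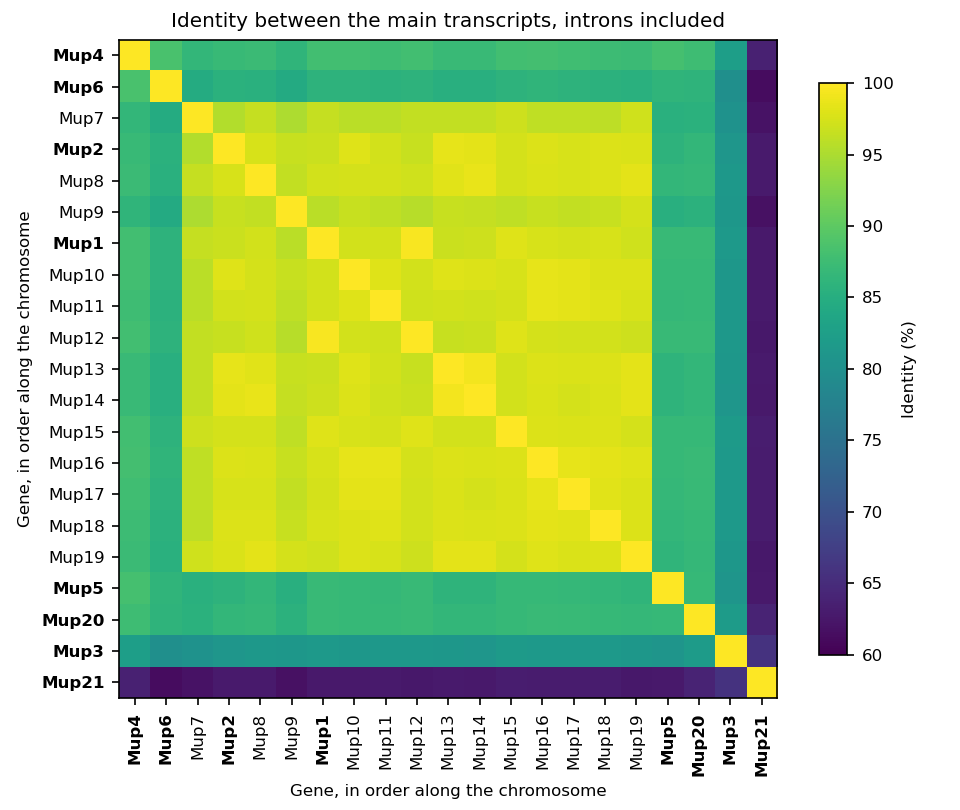
Identity in percent between the main transcripts of the 21 coding *Mup* genes, introns included, with genes in chromosome order on both axes and the 8 genes of this report in bold. *Mup7* to *Mup19* form a block with *Mup1* and *Mup2*, while *Mup4*, *Mup6*, *Mup5*, *Mup20* and *Mup3* are less like it and *Mup21* least.

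How much of each gene is found once in the genome was counted with 50-mers, all runs of 50 bases read on both strands of the whole assembly. The length of the reads is not given in the sources used here, so that this is a measure of the assembly and not of what the reads could place; with 100-mers the share found once in the cluster was 41.5% in place of 27.1%. Of the 50-mers of its main transcript, 92.6% occurred once for *Mup5*, 91.5% for *Mup4*, 87.8% for *Mup6*, 87.1% for *Mup3* and 83.97% for *Mup21*. In contrast, 10.01% did for *Mup20*, 6.91% for *Mup2* and 4.99% for *Mup1*. The median 50-mer of *Mup2* had 10 copies and that of *Mup1* had 5. For *Mup20* the median was 2 copies, and where the other copies of its 50-mers lie is not given here. Its best match among the pseudogenes lay over *Mup-ps19*, at chr4:61617239-61621054 on the minus strand, with 91.1% of its bases matched. The fragments amplified in DamID are flanked by GATC sites, but where along them the reads begin is not given in the sources used here. All 12 GATC sites of *Mup5*, all 12 of *Mup6* and all 18 of *Mup4* had an adjoining 50-mer found once. *Mup3* had 14 of 15 such sites, *Mup21* 8 of 9 and *Mup20* 6 of 17. *Mup2* had 2 of 15 and *Mup1* 2 of 13. Thus most 50-mers of 5 of the 8 genes point to 1 place in the genome, while most of those of *Mup1*, *Mup2* and *Mup20* fit more than 1 place. How the study's mapping treated reads with several equal matches is not given in the sources used here.

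In WT hepatocytes the cluster was mostly lamina-associated. There, 25 LADs covered 1162.9 kb or 63.1% of it, with a median length of 32.04 kb (13.98 to 149.995 kb). In KO hepatocytes 20 LADs covered 808.9 kb or 43.9%, with a median of 42.5 kb (13.6 to 68.2 kb). The span includes 150 kb of N, bases not known in the assembly, which hold no LAD. Without them cover was 68.7% in WT and 47.8% in KO. PI regions numbered 17 and covered 436.7 kb, which is 23.7% of the cluster. Only 8 IP regions lay there, with 127.7 kb or 6.93%. Over the whole of chromosome 4, LADs covered 52.8% in WT and 54.0% in KO, PI regions 4.94% and IP regions 6.74%. Of the LAD bases that WT had in the cluster, 43.4% lay in no KO LAD, compared with 11.4% on chromosome 4 and 12.9% on all chromosomes. Of the KO LAD bases in the cluster, 18.7% lay in no WT LAD, against 13.4% on chromosome 4 and 13.9% on all chromosomes.

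**Figure D2:**
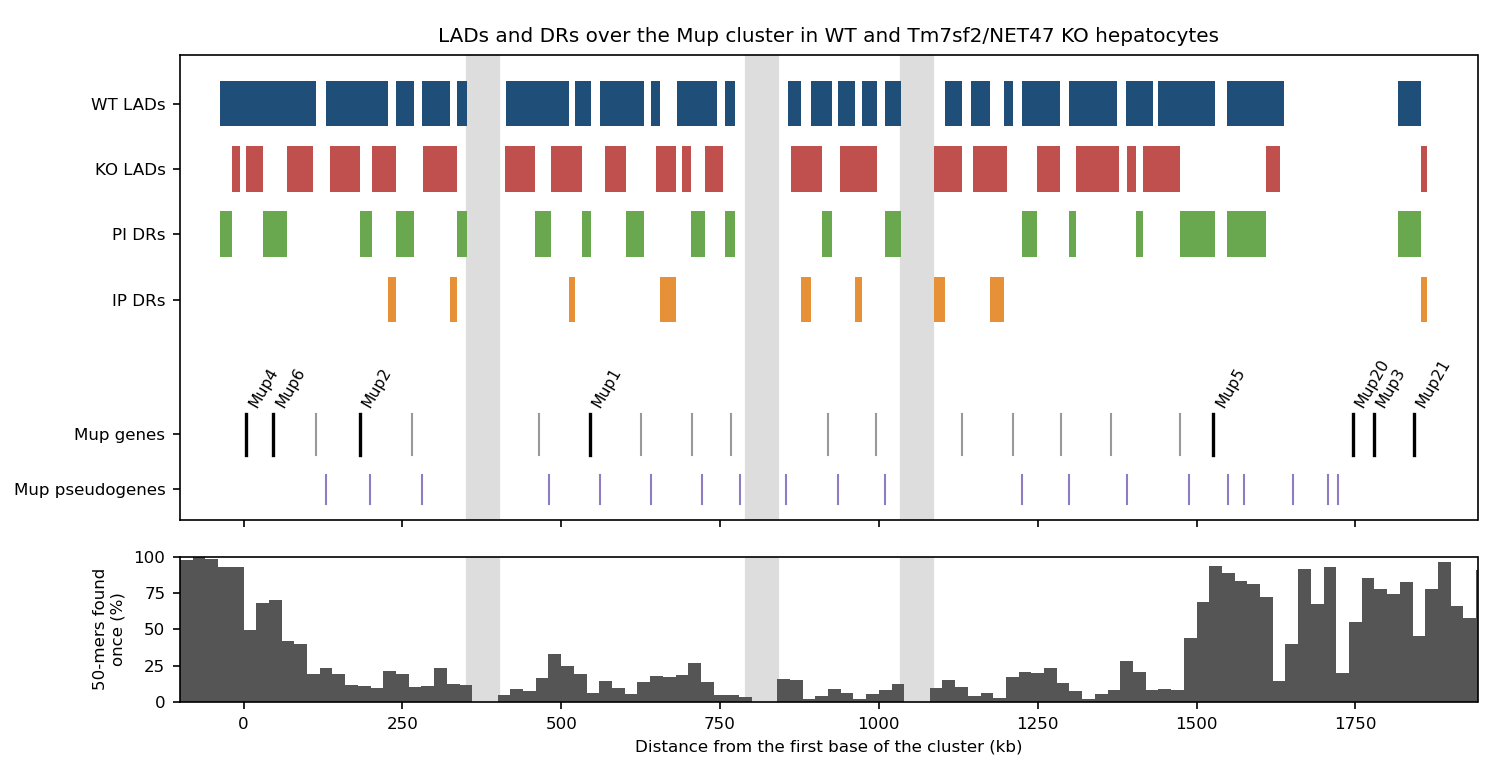
Map of the *Mup* cluster, with distance from its first base in kb on the horizontal axis: LADs and DRs as bars, *Mup* start sites as ticks (black for the 8 named genes, grey for the other 13), pseudogenes in purple and runs of N in grey shading. The lower plot gives the share of 50-mers found once in 20-kb windows: it is low from about *Mup7* to *Mup19* and high around *Mup5* and *Mup21*. No KO LAD lies on *Mup5* or *Mup21*, and none on *Mup1*, *Mup8*, *Mup9*, *Mup10*, *Mup12* or *Mup13* in repeated sequence, while a KO LAD overlaps the start of *Mup4*.

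In WT the LADs of the cluster stood far from any other. The first began 36.4 kb before *Mup4*, and the nearest WT LAD before that was 1141.6 kb away. The last, over *Mup21*, ended 10.3 kb past the cluster, and the next WT LAD was 1465.5 kb away. In KO cells the LADs in the cluster began within *Mup4* and the last ended between *Mup5* and *Mup20*, short of *Mup20*, *Mup3* and *Mup21*. KO LADs were not set apart in this way: 1 of 12.3 kb lay 9.41 kb before the first of these, within the range of the gaps between KO LADs inside the cluster (8.92 to 136.2 kb), and another of 10.5 kb came 221.6 kb after the last. None of the 20 coding genes within 500 kb on either side was in a WT LAD, where 22.7% of all protein-coding genes had their start. Of these 20, 18 were II, against 56.6% of all protein-coding genes. The other 2, *E130308A19Rik* and *Rgs3*, a regulator of G-protein signalling, were IP, against 17.1%. Of their spans, 13.4% and 21.5% lay in a KO LAD.

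Along the cluster the difference was uneven. In the first 250 kb, with *Mup4*, *Mup6* and *Mup2*, LADs covered 88.4% in WT and 60.5% in KO. The third segment, with *Mup1*, had 73.2% and 53.6%. In the fourth segment, over *Mup12* to *Mup14*, total cover was nearly the same, at 47.4% and 44.5%, but the places covered differed. PI regions held 12.4% of this segment and IP regions 11.2%, and *Mup12* and *Mup13* were at 100% in WT and 0.0% in KO. The share of 50-mers found once was at its lowest there, 6.80%. A run of N of 50 kb, with no LAD, also lies in this segment. In the seventh segment, with *Mup5* and *Mup20*, WT LADs covered 47.3% and KO LADs 8.72%. The last 92.2 kb, with *Mup3* and *Mup21*, had 27.5% in WT and 0.0% in KO. The share of 50-mers found once was 66.8% and 78.8% in these last 2 segments, against 6.80 to 31.6% in the 6 before them.

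By gene span, 5 of the 8 genes were PI (*Mup1*, *Mup2*, *Mup5*, *Mup6* and *Mup21*), against 5.43% of all protein-coding genes. *Mup4* was the only PP gene (background 17.9%), *Mup3* and *Mup20* were II (background 56.6%), and 0 were IP (background 17.1%) or AMB (background 2.96%). The transcription start of 6 of the 8 lay in a WT LAD, where 22.7% of all genes had theirs. In KO, 2 of the 8 starts lay in a LAD (*Mup4* and *Mup6*), which is near the share of all genes, 32.8%. A start in a WT LAD and in no KO LAD was found for 4 of the 8 (*Mup1*, *Mup2*, *Mup5* and *Mup21*), against 2.62% of all genes. The whole span was in WT LADs with no base in a KO LAD for *Mup1*, *Mup5* and *Mup21*, against 1.38%. In WT LADs alone, without regard to KO, 5 of the 8 had their whole span (*Mup1*, *Mup4*, *Mup5*, *Mup6* and *Mup21*), against 19.8%. The 8 genes are neighbours and copies of each other, and share LADs, so they do not count as 8 separate cases. With a minimum of 20 kb for LADs and DRs, *Mup1* became II, *Mup2* PP and *Mup4* PI. With LADs joined over gaps of up to 50 kb, *Mup1*, *Mup2* and *Mup6* became PP, and PI was left to *Mup5* and *Mup21*.

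*Mup5* and *Mup21*, both in sequence found mostly once, gave the plainest difference by whole gene span. *Mup6* showed the same by its main transcript only, as given below. *Mup5* (ENSMUSG00000058523.2, chr4:61492353-61496267, minus strand, 7 exons) was in a WT LAD over 100% of its span and in a KO LAD over 0.0%. Its start was 53.3 kb from the nearest KO LAD, and the WT-only stretch over it was 55.2 kb long and reached back into *Mup19*. *Mup21* (ENSMUSG00000066153.2, chr4:61808966-61811897, minus strand, 6 exons) was likewise at 100% in WT and 0.0% in KO. The last WT LAD of the cluster, 35.7 kb long, covered *Mup21* and was a PI region over its whole length. The nearest KO LAD lay 10.7 kb upstream of the *Mup21* start, just past the end of that WT LAD.

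*Mup4* and *Mup6*, the first genes of the cluster, also lie in sequence found mostly once. *Mup4* (ENSMUSG00000041333.6, chr4:59969676-59973582, minus strand, 7 exons) was in a WT LAD over 100% of its span and in a KO LAD over 8.93%. The KO LAD ran to 348 bp past the *Mup4* start, inside intron 1, so that the start and exon 1 were in LADs of both genotypes while 6 exons were in the WT LAD only. The WT-only stretch over the rest of *Mup4*, 91.1% of the gene, was 9.41 kb long. It fell under the 10-kb minimum, and for that reason *Mup4* is PP and not PI. *Mup6* (ENSMUSG00000078689.2, plus strand) is annotated as chr4:59977166-60020146, 43.0 kb, because of a long isoform, with 100% in WT LADs, 52.2% in KO LADs and 47.8% in a PI region. Its main transcript, chr4:60016310-60020146 with 7 exons, was 100% in a WT LAD and 0.0% in any of KO. The start of that transcript lay inside a PI region of 38.8 kb, 16.7 kb from the nearest KO LAD.

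*Mup1* and *Mup2*, from the group of near-identical liver genes, differed from each other in KO. *Mup1* (ENSMUSG00000078683.2, chr4:60510884-60514832, minus strand, 7 exons) was in a WT LAD over 100% of its span and in no KO LAD, within a PI region of 14.2 kb, and its start was 11.9 kb from a KO LAD. *Mup2* (ENSMUSG00000078688.4, minus strand) is annotated as chr4:60080259-60167161, 86.9 kb, since an isoform reaches *Mup7*. That span was 81.9% in WT LADs, 53.0% in KO LADs and 17.1% in a PI region. The main *Mup2* transcript, chr4:60148804-60152769 with 7 exons, was 100% in a WT LAD and 89.1% in that of KO. In KO the LAD ended 432 bp past its start, in intron 1, which left exon 1 and 18.9 kb around and upstream of it in the WT LAD only. So in *Mup2* the body of the gene was in LADs of both genotypes and the start in that of WT alone. Few 50-mers of *Mup1* and *Mup2* are found once, and which copies carried this difference cannot be told apart.

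*Mup20* and *Mup3*, the darcin gene and its neighbour, were in no LAD of either genotype. *Mup20* (ENSMUSG00000078672.2, chr4:61711268-61715192, minus strand, 7 exons) lay 71.3 kb from the nearest WT LAD and 107.4 kb from the nearest KO LAD, measured from its start. *Mup3* (ENSMUSG00000066154.4, chr4:61744510-61748376, minus strand, 7 exons) lay 38.1 kb and 74.2 kb away. Both sat in a gap of 178.8 kb between the last WT LADs of the cluster, which also held *Mup-ps19*, *Mup-ps20* and *Mup-ps21*. *Mup3* has 87.1% of its 50-mers found once, whereas *Mup20* has 10.01%.

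**Figure D3:**
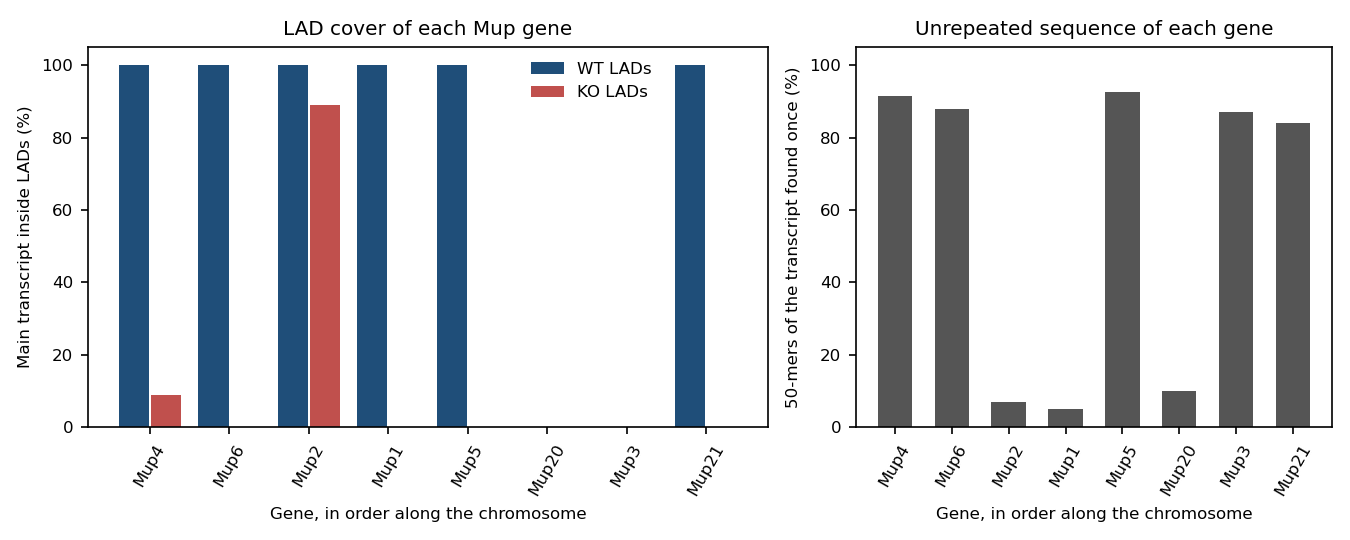
Left, percent of the main transcript of each of the 8 genes inside WT LADs (blue) and KO LADs (red), in chromosome order; right, percent of its 50-mers found once in the genome. Each bar is 1 value from 1 list, with no replicate: 6 genes are at 100% in WT, and in KO only *Mup2* at 89.1% and *Mup4* at 8.93% are above 0.

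The order of the 8 by main transcript in WT was thus 6 genes at 100% (*Mup1*, *Mup2*, *Mup4*, *Mup5*, *Mup6* and *Mup21*) and 2 at 0.0% (*Mup3* and *Mup20*). In KO it was *Mup2* at 89.1%, *Mup4* at 8.93% and the other 6 at 0.0%. By main transcript, 5 of the 8 were PI, 1 was PP and 2 were II, and the start of *Mup4* alone was in a KO LAD. The background shares above are by gene span, and none was taken by main transcript. None of the 8 was covered more in KO than in WT. The 5 genes with over 80% of their 50-mers found once (*Mup3*, *Mup4*, *Mup5*, *Mup6* and *Mup21*) were at 0.0 to 8.93% in KO, and 4 of them were at 100% in WT.

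The other 13 coding genes, *Mup7* to *Mup19*, all lie in repeated sequence, with 2.22 to 26.0% of 50-mers found once (median 12.7%). By main transcript 7 of them were PI, 4 PP and 2 II. Their start was inside a WT LAD for 9 and inside one of KO for 2. No share over all genes was taken by main transcript. By gene span 5.43% of all protein-coding genes were PI, 17.9% PP and 56.6% II, with 22.7% of starts in WT LADs and 32.8% in those of KO. Over all 21 coding genes the median transcript was 100% in WT LADs and 0.0% in KO LADs, 15 were covered more in WT, and 4 were equal. The exceptions were *Mup15* and *Mup17*, covered more in KO by stretches of 0.374 kb and 0.396 kb. *Mup8*, *Mup9*, *Mup10*, *Mup12* and *Mup13* were at 100% in WT and 0.0% in KO, as *Mup1* was. *Mup14* and *Mup18* were at 100% in both. A class of II did not always mean a place outside LADs: *Mup7* was 96.9% and *Mup16* 89.0% in a WT LAD and in no KO LAD, with WT-only stretches of 4.44 kb and 8.32 kb, both under 10 kb. Of the 20 pseudogenes, 9 were PI, 2 PP and 9 II, with no share over all pseudogenes taken. Of those called II, *Mup-ps1*, *Mup-ps6* and *Mup-ps10* were 91.0%, 73.1% and 72.7% in a WT LAD and in no KO LAD. *Mup-ps9* was at 22.4% in WT, and the rest were in no LAD.

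Aligned at their start sites, the 21 genes showed where the difference lay. At the start itself 15 of 21 were in WT LADs and 3 in those of KO. At 5 kb downstream, just past the 3′ end of a typical *Mup* gene, it was 19 and 8, and at 10 kb downstream 18 and 12. At 25 kb downstream both stood at 15, from 25.5 kb (14 in WT, 15 in KO) KO was higher, and at 30 kb it was 11 and 16. That turn came from the other 13 genes, in repeated sequence, with 7 in WT and 13 in KO at 30 kb, while the 8 named genes stood at 4 and 3 there. At 12 kb upstream, before the neighbouring pseudogene, both were low, at 6 and 3, and at 20 kb upstream they were 15 and 8. Between the start and 16 kb upstream, KO LADs held 2 or 3 of the 21 genes at each position read. For the 8 named genes the counts were 6 and 1 at the start and again at 5 kb downstream, but the gene in a KO LAD was *Mup4* at the start and *Mup2* further in. At 12 kb upstream they were 3 and 2. The genes of the repeated array share this spacing with each other, so the 21 curves are not independent.

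**Figure D4:**
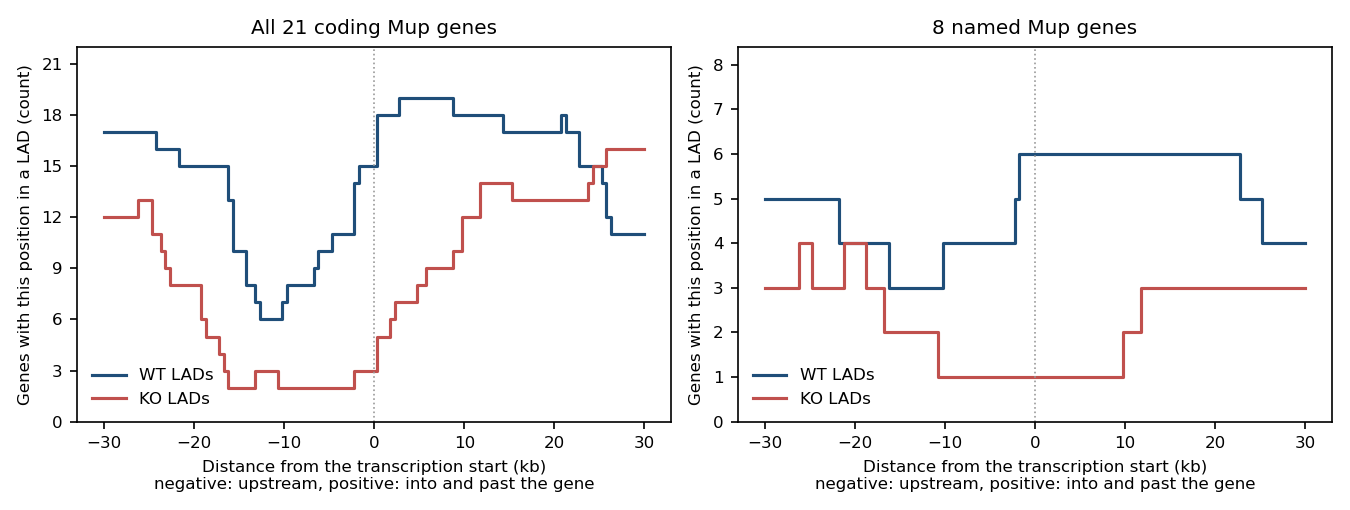
Number of genes whose position at a given distance from the transcription start (kb, negative upstream) lies in a WT LAD (blue) or a KO LAD (red), for all 21 coding *Mup* genes (left) and the 8 named genes (right). Around the start WT exceeds KO (15 against 3, and 6 against 1), and from 25.5 kb downstream KO exceeds WT among the 21 but not among the 8.

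Borders of LADs in the cluster sat at GATC sites in every case, 50 of 50 in WT and 40 of 40 in KO. Of these 90 borders, 15 fell into 7 groups that share the same 60 bases around the site. The clearest group was the GATC of intron 1 at which the KO LAD ended in *Mup2*, 432 bp past the start. WT LADs ended at the same GATC in *Mup15* and in *Mup16*. The window around it is shown for *Mup2* (chr4:60152309-60152368), for *Mup1* (chr4:60514372-60514431), for *Mup4* (chr4:59973128-59973187) and for *Mup21* (chr4:61811441-61811500), all on the minus strand, with GATC in capitals.
Mup2: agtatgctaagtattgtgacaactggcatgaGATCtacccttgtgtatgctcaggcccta
Mup1: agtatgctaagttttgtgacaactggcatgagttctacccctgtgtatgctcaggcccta
Mup4: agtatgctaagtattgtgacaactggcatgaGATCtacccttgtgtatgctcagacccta
Mup21: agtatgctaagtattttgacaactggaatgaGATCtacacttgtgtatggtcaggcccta

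*Mup15* and *Mup16* had the *Mup2* window with 0 differences. *Mup1* had 3 differences from it and no GATC, so no border can fall there in *Mup1*. *Mup4* had 1 difference, *Mup5* and *Mup20* had 2, *Mup6* had 3, and *Mup3* and *Mup21* had 4. A border at the same bases in several copies is where reads of those copies could be exchanged, and the part of this in the borders was not tested.

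The difference between genotypes was smaller over repeated sequence than over sequence found once. The cluster held 27.1% of 50-mers found once, with a median of 4 copies, compared with 96.3% in the 500 kb before it and 88.5% in the 500 kb after. It held 4784 GATC sites, of which 1671 or 34.9% had an adjoining 50-mer found once. Over positions whose 50-mer occurs once (458.7 kb), WT LADs covered 61.7% and KO LADs 26.9%, with 35.3% in PI and 2.76% in IP regions. Over positions whose 50-mer occurs more often (1233.3 kb), cover was 71.3% in WT and 55.6% in KO, with 22.3% in PI and 9.33% in IP regions. The gap between WT and KO was 34.7 percentage points over the first kind of position and 15.8 over the second. Positions of the first kind lay mostly toward the ends of the cluster, and since a LAD spans at least 10 kb, such a position can lie in a LAD called over repeated neighbours. The 28.7% of the cluster that was in no LAD of either genotype had 42.7% of 50-mers found once, the 27.4% in WT LADs only had 34.4%, the 35.7% in both had 16.6% and the 8.19% in KO LADs only had 9.56%. The assembly is interrupted here by 3 runs of N of 50 kb each, which hold no LAD, and WT LADs end directly at the edge of 2 of them. The part of repeated sequence in the difference between genotypes was not tested.

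**Figure D5:**
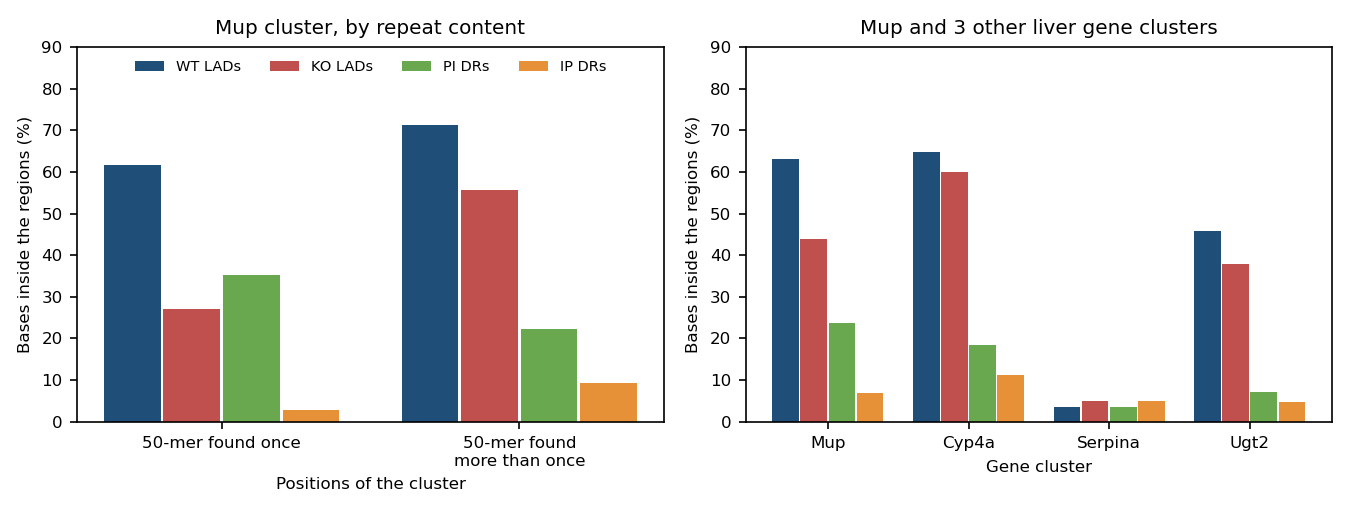
Percent of bases inside WT LADs, KO LADs, PI and IP regions: left, positions of the *Mup* cluster whose 50-mer occurs once or more than once in the genome; right, the *Mup* cluster and 3 other clusters of liver genes. Where the 50-mer occurs once, WT stands at 61.7% and KO at 26.9%; each bar is 1 value with no replicate.

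Set beside other clusters of liver genes, the *Mup* cluster had a larger share of WT LAD bases outside KO LADs (43.4%) than the *Cyp4a* and *Ugt2* clusters. In the *Cyp4a* cluster, 6 genes for fatty acid hydroxylases on the same chromosome, LADs covered 64.7% in WT and 59.9% in KO, and 28.6% of WT LAD bases were in no KO LAD. In the *Ugt2* cluster of 9 genes for glucuronosyltransferases these values were 45.9%, 37.8% and 31.5%. The *Serpina* cluster of 22 genes, which includes those for alpha-1-antitrypsin, was nearly free of LADs, at 3.58% and 4.96%, and its only WT LAD was a PI region. PI genes numbered 2 of 6 in *Cyp4a*, 2 of 9 in *Ugt2* and 1 of 22 in *Serpina*, against 5.43% of all protein-coding genes. The *Serpina* count is near that share. These clusters hold 66.7 to 82.9% of 50-mers found once, against 27.1% in the *Mup* cluster, and the difference between clusters has no replicate and was not tested.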

How the data were processed

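DamID of LaminB1 was measured in primary hepatocytes of WT and *Tm7sf2*/NET47 KO mice, with 1 Dam-LaminB1 and 1 Dam-only library for each genotype, grouped by their labels. The authors mapped the reads to mm9 (BWA and limma are named in the submitters' processing notes, without versions), divided the Dam-LaminB1 signal of each *DpnI* fragment by that of Dam on a log2 scale, and found LADs with the segmentation of DNAcopy. The deposited files used here hold only positions of LADs and DRs, with no signal, score or depth. The 7787 PI and 8208 IP regions were checked by repeating the subtraction with a 10-kb minimum, and all borders were identical.

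From these lists, covered bases, gene classes and distances were computed with Python 3.11.15 and numpy 2.4.6 on the NCBIM37 assembly and its GENCODE vM1 annotation, and positions are 1-based. Copies of each 50-mer were counted over the whole assembly on both strands, and identity is 1 minus the edit distance over the alignment length (edlib 1.3.9.post1). The best match to a pseudogene was sought in its span with 5 kb on each side. The genome was indexed with samtools 1.23.1 and figures were drawn with matplotlib 3.10.9. Overlap and subtraction gave 0 wrong results in 200 cases of simulated data. No statistical test was made, as there is 1 library pair for each genotype. The genes named are the 8 *Mup* genes, all other *Mup* genes and pseudogenes, coding genes within 500 kb, 14 regulators and 8 lipocalins. The members, lists and comparison clusters were chosen with earlier results of these data known. Alternatives were a longer minimum, joined LADs, other overlaps and start sites, and 100-mers.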

Additional observations from a re-analysis of the deposited data

How the results depend on the processing

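The direction, more LAD cover in WT than in KO and more PI than IP cover, held under every setting tried. LADs joined where 50 kb or less lay between them moved KO cover to 66.3%, PI cover to 12.7% and IP cover to 0.998% (WT 78.7%), PI genes to 2, PP genes to 4 (*Mup1*, *Mup2*, *Mup4* and *Mup6*) and starts in KO LADs to 4. Counting only 50-mers found once gave 26.9% for KO and 2.76% for IP. IP cover was 3.21% with a 20-kb minimum, where *Mup1* turned II, *Mup2* PP and *Mup4* PI, and 3.64% with gaps of up to 20 kb joined. When at least 50% of the span had to lie in a DR, 3 genes were PI and 3 PP, with *Mup2* and *Mup6* turning PP; by start site alone PP genes were 2. With 100 kb centred on each gene, PP genes were 0, II genes 1 and AMB genes 2 (*Mup1* and *Mup21*), while *Mup3* and *Mup4* turned PI. Without the 10-kb minimum PP genes were 0, since *Mup4* became PI. By main transcript, chosen after seeing the data, 1 start was in a KO LAD. With 100-mers, also chosen afterwards, 41.5% occurred once. *Mup5* was PI and *Mup20* II under all settings. No gene was IP under any of them. For all protein-coding genes, classes and starts were counted at the main setting only. The gene counts at the other settings therefore have no share over all genes beside them. Shares without replicates were counted as unchanged within 1.5 times.

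No paired analysis was possible because each genotype has 1 library pair and no result comes from a test. The lists give no depth, so no interval can be given, and LADs shorter than 10 kb cannot be seen. Most 50-mers of *Mup1*, *Mup2*, *Mup20* and *Mup7* to *Mup19* have more than 1 copy in the assembly. How reads with several matches were placed is not given in the sources used here.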

Other observations

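The 14 regulators listed include the growth hormone receptor gene *Ghr*, its signalling partners *Jak2*, *Stat5a* and *Stat5b*, and also *Zhx2*, *Bcl6* and *Cux2*. Of the 14, 12 were II (background 56.6%) and 0 were PI (background 5.43%). The other 2, *Ghr* and *Cux2*, a female-biased repressor in mouse liver, were IP (background 17.1%), by KO LADs over 4.50% and 7.18% of spans of 265.7 kb and 191.7 kb. The starts of both lay outside LADs of either genotype. *Zhx2* had a KO LAD 2.70 kb from its span and a WT LAD 63.6 kb away.

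All 8 lipocalin genes listed, the acute-phase genes *Orm1*, *Orm2* and *Orm3* and the genes *Ambp*, *Lcn2*, *Rbp4*, *Apod* and *Ptgds*, were II (background 56.6%), with no base in a LAD of either list. *Ambp* and the *Orm* genes also lie on chromosome 4, beyond the cluster, at 260.8 to 471.9 kb from the nearest WT LAD and 53.8 to 109.3 kb from the nearest KO LAD.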
